A study of Mus musculus with 2 samples.

Results

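The Mir183, Mir96 and Mir182 genes are the 3 members of a microRNA (miRNA) cluster on mouse chromosome 6, and they were read out in the adrenal gland from small RNA sequencing. They were picked by gene name, as the 3 genes of this cluster, from the 2202 miRNA genes that the count tables list. The tables came from 2 libraries of 1 group, adrenal glands of adult male mice of strain 5xFAD/CAST aged 8 to 10 months, with RNA below 30 nucleotides, labelled biological replicates 1 and 2. 5xFAD is the name of a transgenic mouse model of Alzheimer's disease whose transgenes are driven by a neuronal promoter, and CAST is a wild-derived inbred strain. Whether these animals carried the transgenes is not in the labels, and both libraries cite the same donor record, so the spread between the replicates may be partly technical. With 1 group there was no contrast between conditions, and the data describe how much of each member the adrenal gland held and how the members differed among themselves.

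The genes of this cluster are transcribed as 1 long precursor, from which the nuclear enzyme Drosha cuts the hairpins and Dicer the mature miRNAs. A mature miRNA pairs with messenger RNAs mainly through its seed, bases 2 to 8 from the 5′ end, and lowers their output. The cluster is best known from sensory organs, where it is abundant in photoreceptors, hair cells of the inner ear and sensory neurons, and a change in the seed of Mir96 causes hearing loss in mice. It is also found in neuroendocrine tissue, and in rat adrenal it was reported to rise after adrenocorticotropic hormone (ACTH), which the pituitary releases to stimulate steroid synthesis in the adrenal cortex. In human cells, miR-96 and miR-182 are known to act on the messenger of the transcription factor FOXO1, and miR-183 on that of EGR1.

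The seeds are shown first, since they decide which messengers each member can reach. The 5′ arms, from RefSeq on GRCm38.p6 and with the seed in capitals, were these.
mmu-miR-183-5p: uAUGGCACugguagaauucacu
mmu-miR-96-5p: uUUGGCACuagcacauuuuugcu
mmu-miR-182-5p: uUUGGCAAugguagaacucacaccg
Counted from 1 at the 5′ end, miR-183 and miR-96 differed in the first 8 bases by the single substitution A2U, and miR-96 and miR-182 by C8A. Between miR-183 and miR-182 both A2U and C8A were present. Over the first 22 positions, seed included, the grouping was another. Here miR-183 and miR-182 matched at 18 positions, against 13 of 22 for miR-183 and miR-96 and 12 of 22 for miR-96 and miR-182. The longest run shared by miR-183 and miR-182 was the 8 bases UGGUAGAA from position 9, and miR-96 lacks that run. The RefSeq table holds 1738 mature arms, of which 3 carried UUGGCA at bases 2 to 7, the 5′ arms of miR-96, miR-182 and miR-1271. Bases 2 to 7 of miR-183, AUGGCA, occurred in no other mature arm of the table.

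The counted unit was the whole hairpin, which is shown because reads of its arms were added together. Both mature arms are in capitals, and the hairpins are those of RefSeq, identical to the annotated transcripts used for counting.
Mir183: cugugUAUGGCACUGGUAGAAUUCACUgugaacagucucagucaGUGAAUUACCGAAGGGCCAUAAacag
Mir96: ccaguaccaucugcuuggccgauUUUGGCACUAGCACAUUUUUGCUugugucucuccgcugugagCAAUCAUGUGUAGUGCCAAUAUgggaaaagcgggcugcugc
Mir182: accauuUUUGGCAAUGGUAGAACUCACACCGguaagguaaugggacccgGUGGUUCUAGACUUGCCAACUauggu
No arm of a member was found whole in a transcript of another gene among 141767 annotated transcripts. The longest run that Mir183 shared with any other annotated miRNA hairpin was 14 bases, and for Mir96 and Mir182 it was 11 bases each. Of the 2202 genes, 1087 share 20 bases or more with a hairpin at another place and can lose reads as multimapping, and 0 of the 3 members are among them. Places in the genome outside annotated transcripts were not searched.

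All 3 hairpins lie on the minus strand of chromosome 6 of GRCm38 (mm10) and overlap no other annotated gene on either strand. In the order of transcription, Mir183 (ENSMUSG00000065619.2) lies at 30169668 to 30169737, Mir96 (ENSMUSG00000065586.1) at 30169446 to 30169551 and Mir182 (ENSMUSG00000076361.1) at 30165918 to 30165992. Mir183 and Mir96 are 116 bases apart, and 3453 bases separate Mir96 from Mir182, so that the cluster spans 3820 bases. On the plus strand, the noncoding gene Rncr4, described from mouse retina, lies 3155 bases upstream of Mir183, and Nrf1, which encodes a transcription factor of mitochondrial and other genes, ends 12459 bases beyond Mir182. Ube2h, which encodes a ubiquitin-conjugating enzyme, lies 41551 bases upstream on the minus strand. No read was counted on the strand opposite to a member in either library.

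**Figure D1:**
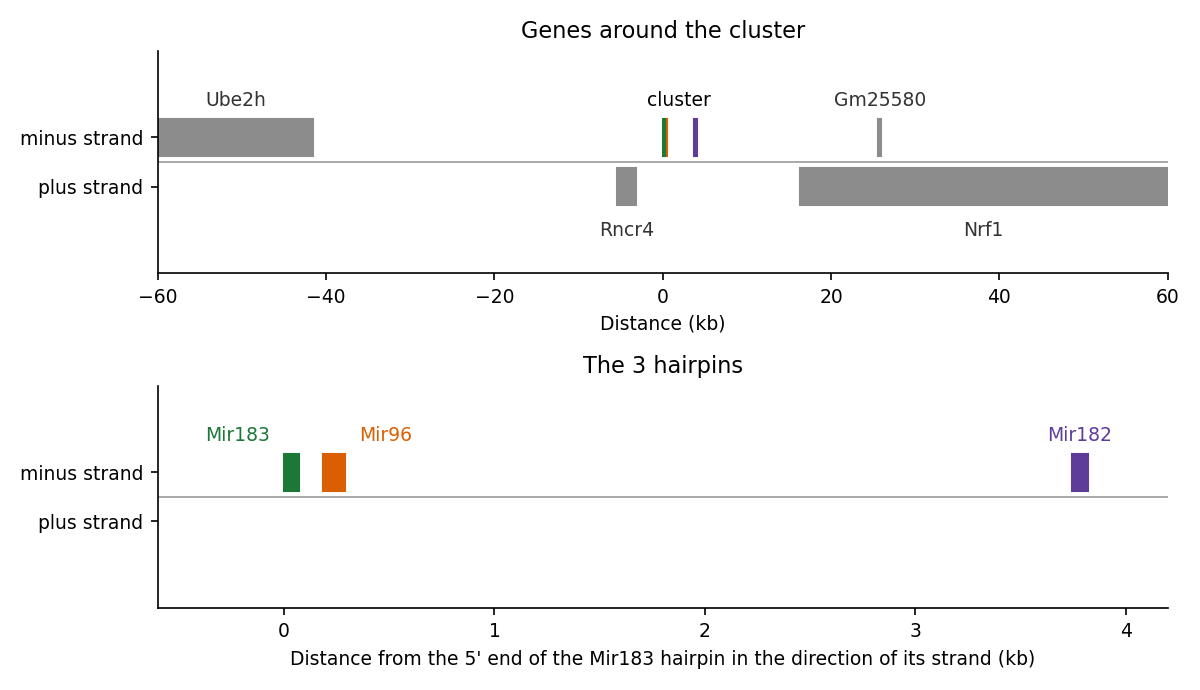
Annotated genes around the cluster (upper panel, kb) and the 3 hairpins to scale (lower panel), by distance from the 5′ end of Mir183 along its strand. Boxes above the line are on the minus strand and boxes below it on the plus strand, and hairpins in the upper panel are drawn wider than their length so as to be seen. Mir183 and Mir96 sit 116 bases apart and Mir182 stands 3453 bases farther on.

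The libraries held 6783227 and 3084602 sense reads of miRNA genes in replicates 1 and 2. Levels are given in CPM, the reads of a gene per 1000000 of these reads, and intervals are exact 95% Poisson limits that cover counting error only, since reads without molecular identifiers are not independent molecules. The limit that a count of 0 allows, 3 reads, came to 0.442 and 0.973 CPM in replicates 1 and 2, and each member was above that limit in both libraries.

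Mir182 and Mir183 were present at moderate levels. Mir96 was lower, with 10 reads in replicate 2 against the limit of 3 reads. Mir182 had 921 reads in replicate 1 and 813 in replicate 2, or 136 CPM (127 to 145) and 264 CPM (246 to 282). Its mean was 200 ± 90.4 CPM (SD, n = 2). Replicate 2 was the higher library, and the counting intervals did not overlap.

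Mir183 had 693 and 482 reads, or 102 CPM (94.7 to 110) in replicate 1 and 156 CPM (143 to 171) in replicate 2, with a mean of 129 ± 38.3 CPM. It too was higher in replicate 2, with intervals that did not overlap. Mir96 had 45 and 10 reads, or 6.63 CPM (4.84 to 8.88) in replicate 1 and 3.24 CPM (1.55 to 5.96) in replicate 2, with a mean of 4.94 ± 2.40 CPM. It was lower in replicate 2, and here the intervals overlapped.

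**Figure D2:**
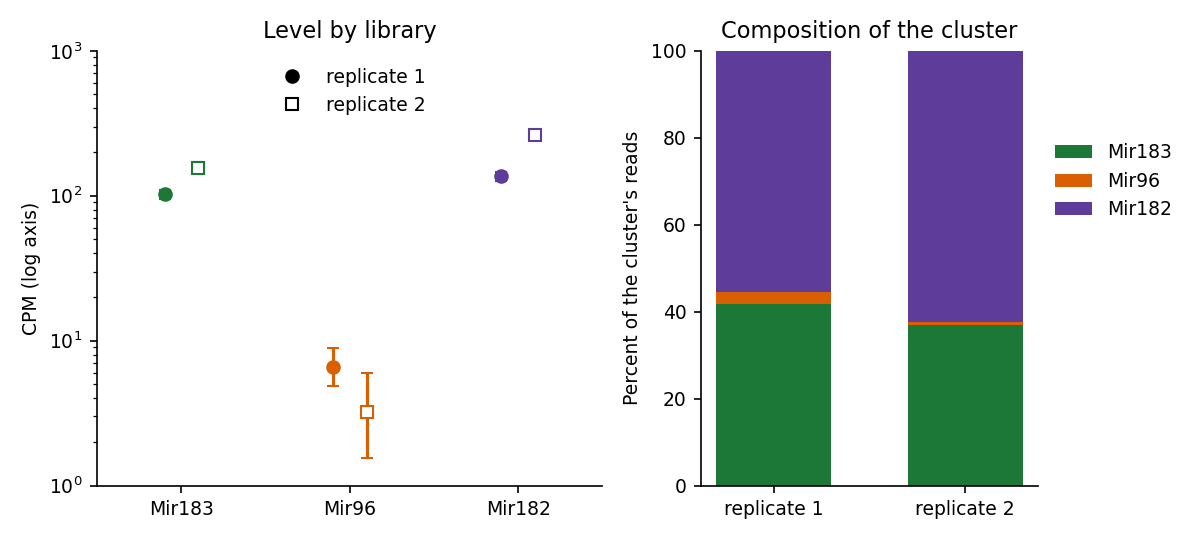
Left, CPM of each member on a log axis in replicate 1 (filled circles) and replicate 2 (open squares), with exact 95% Poisson limits as bars. Right, the percent of the cluster's reads that fell to each member in each library, where Mir96 took 2.71% and 0.766% of the reads.

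By the number of its reads, the cluster was mostly Mir182 and Mir183. Mir182 made up 55.5% (Wilson 95% interval 53.1 to 57.9) of the cluster's 1659 reads in replicate 1 and 62.3% (59.6 to 64.9) of its 1305 reads in replicate 2. Mir183 made up 41.8% (39.4 to 44.2) and 36.9% (34.4 to 39.6). Mir96 made up 2.71% (2.03 to 3.61) and 0.766% (0.417 to 1.40). The balance therefore differed between the libraries beyond counting error for Mir182 and for Mir96. The intervals of Mir183 overlapped slightly, which is no test and does not show that its share was the same.

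Of the reads assigned to genes with UUGGCA at bases 2 to 7 of a mature arm, nearly all were of Mir182. It held 921 of 966 such reads, 95.3% (93.8 to 96.5), in replicate 1 and 813 of 825, 98.5% (97.5 to 99.2), in replicate 2. The remaining gene with UUGGCA, Gm24195, which RefSeq lists as the source of miR-1271, had 0 reads in replicate 1 and 2 in replicate 2. It is named because it completes this set, although it was below the limit of 1 CPM fixed for naming such genes. Over the full seed, bases 2 to 8, miR-182 carries UUGGCAA, while miR-96 and miR-1271 carry UUGGCAC. Mir182 therefore does not share the full seed of Mir96 and Gm24195. These are reads of whole genes, and the counts do not say how many came from the 5′ arm that carries UUGGCA.

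Between members, a difference was called beyond the replicate spread when both libraries ordered the genes alike and both gaps in CPM exceeded the replicate difference of either gene. Mir183 stood above Mir96 by this rule, 15.4-fold (11.4 to 21.3) in replicate 1 and 48.2-fold (26.0 to 101) in replicate 2, with a geometric mean of 27.2-fold. Mir182 stood above Mir96 20.5-fold (15.2 to 28.3) and 81.3-fold (44.0 to 170), with a geometric mean of 40.8-fold. On the CPM scale of the rule this call was narrow, since the smaller gap was 129 CPM and the replicates of Mir182 differed by 128 CPM. On a log2 scale the ratios of Mir183 and Mir182 to Mir96 were 4.77 ± 1.16 and 5.35 ± 1.41 (SD, n = 2).

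By the rule on replicate spread, Mir182 and Mir183 were not called apart. The gap of 33.6 CPM in replicate 1 was smaller than the replicate difference of either gene. Mir182 was higher in both libraries, 1.33-fold (1.20 to 1.47) in replicate 1 and 1.69-fold (1.51 to 1.89) in replicate 2. Both counting intervals lay above 1, and the log2 ratio was 0.58 ± 0.24 (SD, n = 2). The rule does not use that both genes were read in the same libraries, so it can miss an order held within each. The most distant hairpins of the cluster thus had the most similar CPM, and the closest hairpins, Mir183 and Mir96, were far apart in CPM. These ratios compare CPM, reads not divided by hairpin length, and reads of a gene need not stand in a fixed proportion to its molecules.

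Among the 2202 genes, Mir182 ranked 143rd, Mir183 165th and Mir96 307th by mean CPM. In replicates 1 and 2 the ranks were 158 and 118 for Mir182, 169 and 155 for Mir183, and 292 and 322 for Mir96. The 280 genes of a mean of at least 10 CPM include Mir182 and Mir183 but not Mir96. By the rule on replicate spread, 93 of the other 279 genes stood above Mir182, 2 below it and 184 were not apart from it. For Mir183, 116 genes stood above, 75 below and 88 were not apart. The rule needs a gap in both libraries above the 128 CPM by which the replicates of Mir182 differed. Mir182 stood at 136 CPM in replicate 1, so hardly any gene of at least 10 CPM could stand below it. Its counts below and not apart therefore follow from the rule and do not measure how certain its place is. Of these 280 genes, 237 stood above Mir96 and 43 were not apart from it. As Mir96 has a mean under 10 CPM, none of them could stand below it, and genes under 10 CPM were not placed.

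**Figure D3:**
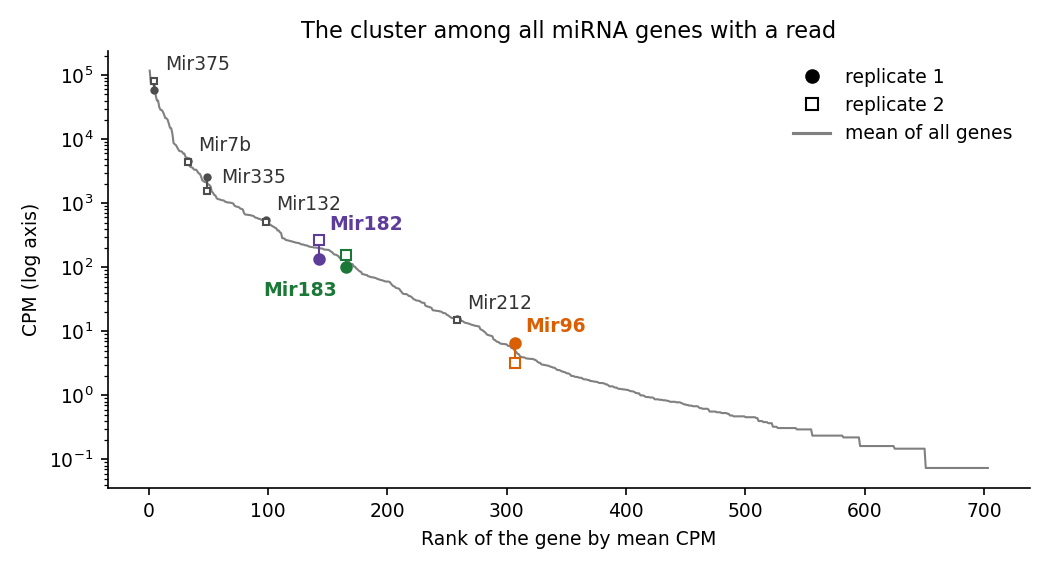
CPM of the members and of 5 other genes on a log axis, in replicate 1 (filled circles) and replicate 2 (open squares), at the rank of their mean, with the mean of each gene with a read as a grey line. Mir182 and Mir183 sit at ranks 143 and 165 and Mir96 at rank 307, far below Mir375 at rank 5.

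The genes nearest in level were found by the Euclidean distance of log2(CPM + 1) over the 2 libraries among genes of at least 10 CPM. Nearest to Mir183 was Mir7-2, a member of the neuroendocrine mir-7 family, at 113 and 143 CPM (distance 0.19), then Mir130b (0.29) and Mir25 (0.30). Nearest to Mir182 were Mirlet7a-2, at 139 and 250 CPM (distance 0.08), Mir188 (0.15) and Mir24-2 (0.31). For Mir96, which is itself below the limit of 10 CPM, the nearest genes above it were Mir511 at a distance of 1.32, Mir450-2 at 1.48 and Mir677 at 1.63. None of these 9 genes lies on chromosome 6, and with 2 libraries a short distance says only that the CPM values were close. Mir7-2, Mirlet7a-2, Mir24-2 and Mir450-2 share 20 bases or more with another hairpin, so their CPM can miss multimapping reads.

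The replicates were then compared gene by gene on log2(CPM + 1), replicate 2 minus replicate 1, and the reads were tested by Fisher's exact test (two-sided), with Benjamini-Hochberg adjustment over the 280 genes. Calls needed an adjusted p under 0.05 together with a log2 difference of 1 or more in size. Such a test sets 2 libraries against each other and says nothing of conditions or animals. In all, 30 of 280 genes were called, 10.7%, with 6.07% called higher and 4.64% called lower in replicate 2. The split depended on the scaling: 17 were higher and 13 lower with CPM, against 12 and 17 with TMM factors and 8 and 17 with DESeq2 size factors. Of the cluster, Mir183 and Mir182 were among the genes tested, and 0 of these 2 were called.

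Mir182 came close to the limit. Its log2 difference was 0.95 (1.94-fold, exact interval 1.76 to 2.14), with an adjusted p of 3.6e-41 in Fisher's exact test, and 31 of the 280 genes had a larger absolute difference. Mir183 had a log2 difference of 0.61 (1.53-fold, 1.36 to 1.72), with an adjusted p of 5.4e-12, and 64 genes had a larger one. An adjusted p under 0.05 alone was reached by 69.3% of the 280 genes, so it sets neither member apart. The median absolute difference over all 280 was 0.28.

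Mir96 went the other way, by −0.85 on the same scale. Its CPM in replicate 2 was 0.489 of that in replicate 1, with an exact interval of 0.220 to 0.984 that nearly reached equality. Among the 76 genes with a mean from 2 to 10 CPM, 22 had a larger absolute difference. When all 703 genes with a read were tested, its adjusted p was 0.12 in Fisher's exact test. Mir96 was thus not called after adjustment, although the interval above, which is not adjusted, left out equality. The ratio of Mir183 to Mir96 had counting intervals in the 2 libraries that did not overlap, and so had that of Mir182 to Mir96, with 10 reads of Mir96 in replicate 2.

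**Figure D4:**
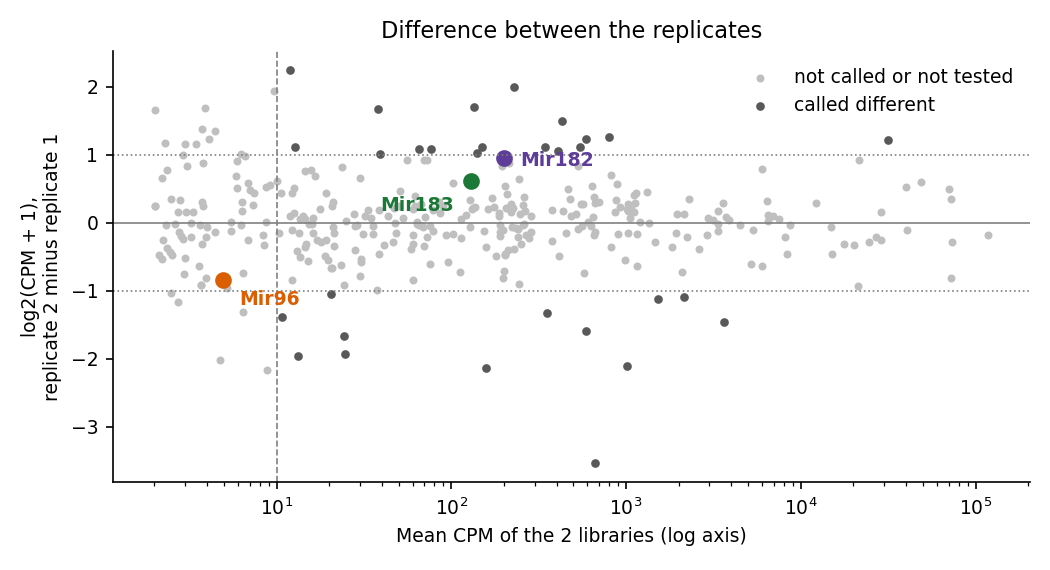
Difference between the replicates on log2(CPM + 1) against mean CPM (log axis) for genes of at least 2 CPM, with called genes dark, dotted lines at 1 and −1 and a dashed line at 10 CPM, below which genes were not tested. Mir182 at 0.95 and Mir183 at 0.61 lie inside the dotted lines, and so does Mir96 at −0.85.

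Other annotated clusters were used to place the spread within this one. miRNA genes of 1 strand at most 10000 bases apart were joined, and clusters with at least 2 genes of a mean of at least 1 CPM were kept. The spread of the Mir183, Mir96 and Mir182 cluster, its highest over its lowest mean CPM, was 40.4-fold. Of the 45 other clusters, 30 had a smaller spread, and their median was 17.3-fold within a range of 1.13 to 15093. Of the 21 clusters in which no gene shares 20 bases with a hairpin elsewhere, 18 had a smaller spread, with a median of 7.46. The place of the cluster rests on Mir96, since with genes of at least 10 CPM only Mir182 and Mir183 count, the spread was 1.55-fold, and 6 of 36 other clusters had a smaller one. These are descriptions, and larger clusters have more chances of a wide spread.

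As neighbours, Mir183 and Mir96 differed 26.2-fold by their mean CPM. Of 98 other neighbouring pairs within 10000 bases, 26 differed by more, and their median was 6.48-fold. Of the 28 other pairs within 200 bases, 5 differed by more, with a median of 2.71-fold. Those 5 were named after their values had been seen: Mir322 over Mir503 (98.1-fold), Mir409 over Mir412 (93.4), Mir23a over Mir27a (73.2), Mir369 over Mir412 (47.9) and Mir181a-1 over Mir181b-1 (33.1). In the pairs of Mir23a and of Mir181a-1 a gene shares 20 bases with a hairpin elsewhere, so those folds are uncertain. Mir182 over Mir96 differed by more than 79 of the 98 pairs.

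**Figure D5:**
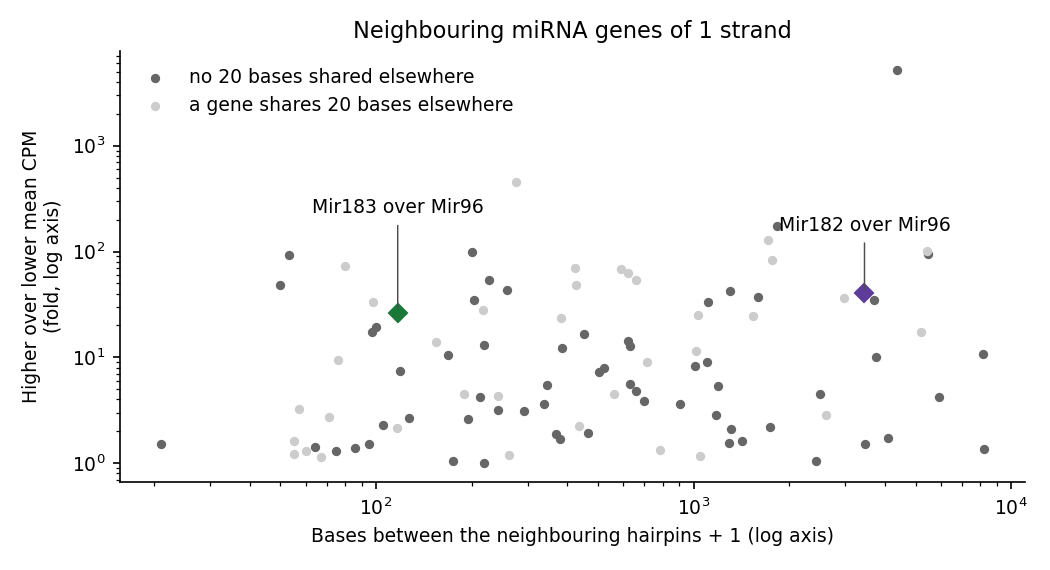
Higher over lower mean CPM of neighbouring miRNA genes of 1 strand (fold, log axis) against the bases between their hairpins (log axis), where both genes had a mean of at least 1 CPM. Mir183 over Mir96 at 26.2-fold and Mir182 over Mir96 at 40.4-fold lie in the upper part of the points, and 26 and 19 of the 98 other pairs lie above them.

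Of the other annotated miRNA genes within 1000000 bases of the cluster, 3 had reads. Mir335, from the imprinted Mest locus, stood at 2618 and 1580 CPM in the 2 libraries. Mir29a stood at 8773 and 8591 CPM, and Mir29b-1, which shares 20 bases with another hairpin, at 21.1 and 17.5 CPM. For Mir335 the log2 difference was −0.73, the opposite sign to Mir182 and Mir183, and for Mir29a it was −0.03; neither was called. Gm23049, Gm26220 and Gm44354 had 0 reads in both libraries, and for Gm23049 and Gm26220, which share 20 bases with another hairpin, this sets no limit.

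Other miRNAs reported as raised by ACTH in rat adrenal include the Mir132 and Mir212 pair. In each library the CPM of Mir182 and Mir183 lay between those of that pair. This is an order by CPM and not by the rule on replicate spread. Mir132, which is induced through the cAMP response factor CREB, stood at 547 and 514 CPM, and Mir212, from the same precursor, at 15.5 and 15.2 CPM. Mir132 was thus 4.03-fold above Mir182 in replicate 1 and 1.95-fold in replicate 2, and both genes of that pair were nearly equal between the libraries, with log2 differences of −0.09 and −0.02. Of the 5 listed genes raised by ACTH, 4 were tested and 0 were called, where 10.7% of all genes tested were called. The median log2 difference of these 4 was 0.29, against 0.01 over all 280 genes, and it came from the cluster itself, since without the cluster it was −0.06.

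Of the genes reported as lowered by ACTH in rat, Mir214 stood at 355 and 831 CPM, Mir27a at 598 and 732 CPM and Mir503 at 190 and 220 CPM. Mir214 was called higher in replicate 2 (log2 difference 1.22), and the other 2 were not called at 0.29 and 0.21. Mir27a shares 20 bases with another hairpin, so its CPM can miss multimapping reads. The 8 annotated copies of Mir466b had 0 reads, but reads shared by near-identical copies were assigned to no gene, so this sets no limit. The summed level of this list was 1143 CPM in replicate 1 and 1783 CPM in replicate 2. That of the raised list was 807 and 952 CPM with the cluster, and 563 and 529 CPM without it. These animals were not treated with ACTH as far as the labels say.

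Cell types were not measured apart, and in bulk tissue fewer cells of a type and less RNA per cell cannot be told apart. The summed level of the cluster was 245 and 423 CPM in replicates 1 and 2, a mean of 0.0334% ± 0.0126 of miRNA reads (SD, n = 2). Of the neuroendocrine list, 5 of 5 genes reached 10 CPM. Their sum was higher in replicate 2, 87332 against 63657 CPM, but most of it was Mir375. By gene, 3 of 5 were higher in replicate 2, with Mir153 called higher at a log2 difference of 1.08. Mir7-1 (250 and 233 CPM) and Mir7b were lower there. Mir7-1 and Mir7-2 share 20 bases with another hairpin, so their CPM can miss multimapping reads. Mir375, a miRNA of neuroendocrine cells, stood at 58717 and 82443 CPM (log2 difference 0.49, not called), while Mir7b stood at 4535 and 4423 CPM. Mir375 was 432-fold above Mir182 in replicate 1 and 313-fold in replicate 2.

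The epithelial list had 2 of 7 genes at 10 CPM or more, and summed to 432 and 577 CPM in replicates 1 and 2. Without Mir203, which stood at 386 and 542 CPM, its sums were 45.8 and 35.3 CPM, the opposite direction. The leukocyte list, with 5 of 5 genes at 10 CPM or more, summed to 2022 and 1605 CPM, but 3 of 5 genes were higher in replicate 2, and without Mir146, which shares 20 bases with another hairpin, the sums were 610 and 693 CPM. The erythroid list, 3 of 3 genes, summed to 5556 and 2149 CPM. Mir451a of that list was called lower in replicate 2 (log2 difference −1.46), while Mir144 stood at 191 and 187 CPM and Mir486 at 14.2 and 12.6 CPM. The liver gene Mir122 was also called lower, at 257 and 57.7 CPM (log2 difference −2.14). The single endothelial gene, Mir126a, stood at 92610 and 52519 CPM, and the adipose list, 3 of 5 genes, summed to 3697 and 4117 CPM. The kidney list, 2 of 3 genes, summed to 45.3 and 39.6 CPM, with Mir194-1 at 0, and as that gene shares 20 bases with another hairpin its 0 sets no limit. In the list for retina and neurons 1 of 8 genes, Mir204, reached 10 CPM, the sums were 64.4 and 56.4 CPM, and 5 genes, the 3 Mir124a copies, Mir9-1 and Mir9-2, had 0 reads, though these 5 share 20 bases with another hairpin. The part of any of these cell types in the levels of the cluster was not tested, and none of the listed miRNAs defines the adrenal gland itself.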

How the data were processed

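Small RNA of the adrenal gland was sequenced in 2 libraries. The authors deposited raw read counts per miRNA gene in 3 columns (both strands, the gene's strand, the opposite strand), and per the text deposited with them the assembly was mm10 and the annotation GENCODE M21. The aligner is not given in the sources used here, nor are its settings. The columns have no header and were identified from the layout of STAR gene counts and from their totals. Multimapping reads made up 30.3% of the table in replicate 1 and 32.1% in replicate 2, and they were assigned to no gene. Unmapped reads made up 14.7% and 16.5%. Sense reads of miRNA genes were 51.4% and 47.6% of all reads, and the lines that name no gene were left out of totals and tests. Reads of another strain were set against the mm10 reference, and the effect of a variant in a member was not tested.

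All 2202 identifiers were found in GENCODE M21. A symbol with a RefSeq hairpin was found for 968 of them, the 3 members included. CPM, intervals and Fisher's exact tests were computed with scipy 1.17.1, and TMM factors with edgeR 4.0.16 and size factors with DESeq2 1.42.0. A pseudocount of 1 CPM was used on the log2 scale. The comparison of the replicates was also run on simulated libraries with counting error only. The spread between the real libraries was wider than that, so this run does not show how reliable the calls are. Named genes were the members, the 3 genes nearest to each in level, miRNA genes within 1000000 bases, genes sharing bases 2 to 7 of a 5′ arm at 1 CPM or more, and the ACTH and cell type lists. The members and lists were chosen with earlier results of these data known. Alternatives were other scalings, the column for both strands, other limits on low values, another pseudocount, other cluster distances and 1 library alone.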

Additional observations from a re-analysis of the deposited data

How the results depend on the processing

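With TMM, DESeq2 size factors or the column for both strands, the levels of the 3 members and the share of the cluster moved by less than the replicate SD. Per 1000000 reads of the whole table, by construction a larger total, the means were 63.4 for Mir183, 2.47 for Mir96 and 97.6 for Mir182, and the cluster was 0.0163% of reads. With 1 library alone, Mir183 over Mir96 ranged from 15.4 to 48.2 and Mir182 over Mir96 from 20.5 to 81.3, and Mir182 over Mir183 from 1.33 to 1.69. The members' differences between the replicates kept their direction in each setting that gave them a value, and Mir182 and Mir183 were called in none. Mir96 was tested only among all genes with a read. It could not be called there, as its difference of −0.85 was below the size that a call needs. That of Mir182 ranged from 0.82 with DESeq2 size factors to 0.95, and that of Mir96 from −0.96 to −0.85. The number of genes called was 50 when every gene with a read was tested and 19 among genes of at least 100 CPM, as more and fewer genes were tested, and 25 to 31 otherwise. Of the called genes, 17 were higher and 13 lower in replicate 2, against 12 and 17 under TMM and 8 and 17 under DESeq2 size factors, where the median log2 difference moved from 0.01 to −0.09 and −0.12. The cluster's spread lay above that of 66.7% of other clusters, and above 16.7% when members needed 10 CPM, which leaves out Mir96. No paired analysis was possible because there is 1 group. Depth limits Mir96, with 45 and 10 reads.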
